A study of Rattus norvegicus with 232 samples.

Results

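The alcohol and aldehyde metabolism genes examined here are 9 named genes, Aldh2, Adh1, Adh5, Cat, Aldh1a1, Aldh1b1, Aldh3a2, Aldh7a1 and Aldh9a1, among 20859 genes of a RefSeq gene table from whole brain of inbred rats. The genes were chosen by name for their place in the pathway. All 9 were present in the table and none was removed by a filter. The samples were untreated young adult males of the Hybrid Rat Diversity Panel, and RNA depleted of ribosomal RNA was sequenced from 214 libraries of 197 animals in 74 strains. The HXB/BXH recombinant inbred family (30 strains, 88 animals) was bred from the progenitors BN-Lx/Cub and SHR/OlaIpcv. F344/Stm and LE/Stm are the progenitors of the FXLE/LEXF family (19 strains, 43 animals). The other 25 classic inbred strains (66 animals) include those 4 progenitors. A strain is a line fixed by inbreeding, so animals of a strain share a genome, and a recombinant strain carries a fixed mosaic of its progenitors. Of the strains 54 had 3 animals, 15 strains had 2 and 5 strains had 1, LE/Stm and BUF/MnaMcwi among them. No group differed in treatment, so strain is the comparison throughout.

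Ethanol is oxidised to acetaldehyde and then to acetate. In liver the first step belongs mainly to class I alcohol dehydrogenase (Adh1), whereas in brain catalase (Cat), a peroxisomal enzyme that breaks down hydrogen peroxide, carries much of it. The mitochondrial enzyme Aldh2 does most of the second step, and related aldehyde dehydrogenases clear aldehydes that arise from retinoids, lipids, lysine, polyamines and monoamines.

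The promoters of the 4 genes whose level varied among the HXB/BXH strains are shown because they are the members on which the family comparison turns. Each line holds the 250 bases before the annotated start in RefSeq's GRCr8 build, 5′ to 3′ on the gene's own strand, with GC boxes (GGGCGG) and CCAAT boxes (CCAAT) in capitals on either strand.
Aldh9a1 (chr13:82038429-82038678, plus strand): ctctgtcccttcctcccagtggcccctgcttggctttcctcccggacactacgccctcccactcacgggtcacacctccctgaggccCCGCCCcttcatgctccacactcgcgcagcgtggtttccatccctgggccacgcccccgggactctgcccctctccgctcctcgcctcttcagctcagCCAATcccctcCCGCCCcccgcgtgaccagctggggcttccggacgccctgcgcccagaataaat
Aldh1b1 (chr5:64858750-64858999, plus strand): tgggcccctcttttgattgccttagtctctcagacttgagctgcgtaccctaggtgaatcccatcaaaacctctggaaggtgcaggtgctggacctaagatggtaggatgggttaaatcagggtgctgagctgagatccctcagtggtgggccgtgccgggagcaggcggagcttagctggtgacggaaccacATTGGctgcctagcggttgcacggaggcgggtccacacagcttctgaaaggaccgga
Cat (chr3:110329527-110329776, minus strand): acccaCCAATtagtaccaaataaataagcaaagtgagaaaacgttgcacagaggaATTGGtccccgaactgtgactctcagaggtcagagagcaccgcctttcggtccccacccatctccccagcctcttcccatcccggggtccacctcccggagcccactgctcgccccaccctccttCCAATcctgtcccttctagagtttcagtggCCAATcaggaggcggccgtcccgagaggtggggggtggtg
Aldh1a1 (chr1:227537370-227537619, plus strand): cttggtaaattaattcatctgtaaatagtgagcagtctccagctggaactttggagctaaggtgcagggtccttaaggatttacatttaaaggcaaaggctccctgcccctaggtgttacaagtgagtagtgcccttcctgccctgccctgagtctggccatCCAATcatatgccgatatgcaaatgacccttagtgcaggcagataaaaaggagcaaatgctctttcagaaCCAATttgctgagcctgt
The Aldh9a1 window held 2 GC boxes and 1 CCAAT box at a GC content of 68.4%. The Cat window held 4 CCAAT boxes and no GC box, the Aldh1a1 window 2 CCAAT boxes and the Aldh1b1 window 1, at GC contents of 58.8%, 46.4% and 57.6%. Of 33469 promoters of that RefSeq set 30.5% held a GC box, 34.0% a CCAAT box and 12.9% a TATA box (TATAAA), and none of the 8 members with an entry held the TATA box in this window. These are matches of letters only.

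The tissue label held up, since the neuron list ranged between 13.68 and 13.95 over strains, the astrocyte list between 13.20 and 13.59, and the oligodendrocyte list between 14.49 and 15.14. These are mean levels over 6, 7 and 6 marker genes on the deposited log2 scale, which is used for every level below. Some libraries stood apart. A list of 19 liver genes had a median of 7.15 over libraries, and in 13 libraries from 11 strains it exceeded this by more than 1, against a highest value of 7.95 in the other 201. LE/Stm animal 2, the only LE/Stm animal, reached 16.98, with 18 of 19 liver genes above every library outside those 13. F344/Stm animals 2 and 3 stood at 9.47 and 9.20, and F344/Stm animal 1 was not raised. SHR/OlaIpcv animal 1 (11.70 in 1 of its 12 libraries), HXB10/Ipcv animal 1 (11.33) and BXH6/Cub animal 3 (11.20) were the next highest. In 4 libraries, all 3 of LEW/Crl and HXB17/Ipcv animal 2, the mean of 3 Y-linked genes lay between 9.06 and 9.46, below the range of 9.94 to 11.51 in the others, although all animals are labelled male. Without those 4 libraries the number of members called was the same in every comparison.

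**Figure D1:**
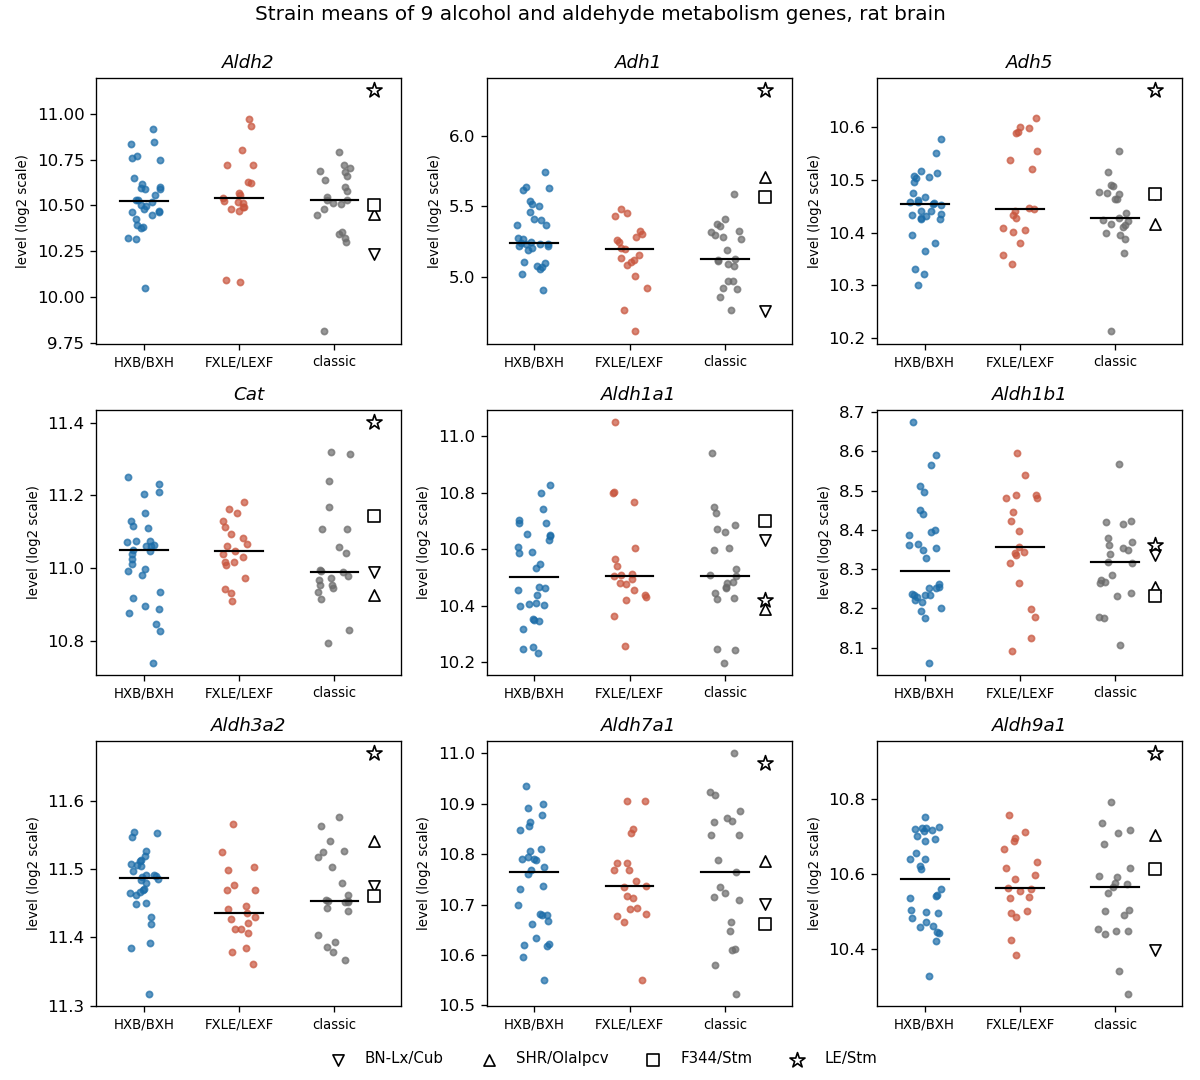
Strain means of each gene by panel on the deposited log2 scale (y axis), with a bar at the panel median and open symbols for the 4 progenitor strains, drawn apart at the right. LE/Stm (star) lies above every other strain for 6 of the 9 genes, and for Aldh9a1 BN-Lx/Cub (10.40) and SHR/OlaIpcv (10.70) lie toward opposite ends of the HXB/BXH strains.

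Which of these genes differ among strains was asked first over all 74 strains. The level of 5 of the 9 genes varied with strain at 5% FDR (limma moderated F-test, Benjamini-Hochberg over all genes): Aldh9a1, Aldh1b1, Cat, Aldh1a1 and Aldh7a1. Of all genes tested 37.3% were called, so a count of 5 of 9 is not far above the background. Broad-sense heritability, taken as R2 of the strain term, was 0.71 for Aldh9a1, which oxidises an aldehyde in carnitine synthesis and amine breakdown (adjusted p = 2.5e-10). It was 0.59 for Aldh1b1, a mitochondrial enzyme that also accepts acetaldehyde (adjusted p = 5.8e-05), and 0.59 for Cat (adjusted p = 6.4e-05). It was 0.54 for Aldh1a1, a cytosolic enzyme that makes retinoic acid (adjusted p = 0.0018), and 0.54 for Aldh7a1, which acts in lysine breakdown (adjusted p = 0.0031). Without the animals numbered 2 the count over all strains was 2, and without those numbered 1 or 3 it was 4. The median R2 of all genes was 0.45, and a layout of this size gives 0.37 on average when strains do not differ. Libraries came from 17 batches by the batch label, and all animals of some strains, such as F344/Stm, were in 1 batch. For some libraries the sample title gives another sequencing batch number, and the batch label was used throughout. R2 was not adjusted for batch, so differences between strains and between batches cannot be fully told apart in it.

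The other 4 genes did not pass the limma F-test in this fit, which kept the libraries with raised liver transcripts. R2 was 0.44 for Aldh2 (adjusted p = 0.12) and 0.38 for Adh1 (adjusted p = 0.43), the latter near the value the layout gives without strain differences. It was 0.45 for Adh5, the class III enzyme that clears formaldehyde bound to glutathione (adjusted p = 0.14). For Aldh3a2, the fatty aldehyde dehydrogenase, it was 0.42 (adjusted p = 0.31). Which genes passed over all strains depended on the processing. Over the alternatives Aldh2 and Adh5 were each called in 2 of 14, Aldh3a2 in 1 of 14 and Adh1 in 1 of 12. Of the called genes Aldh7a1 passed in 10 of 14, Aldh1b1 in 12, Cat and Aldh1a1 each in 13 and Aldh9a1 in 14.

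**Figure D2:**
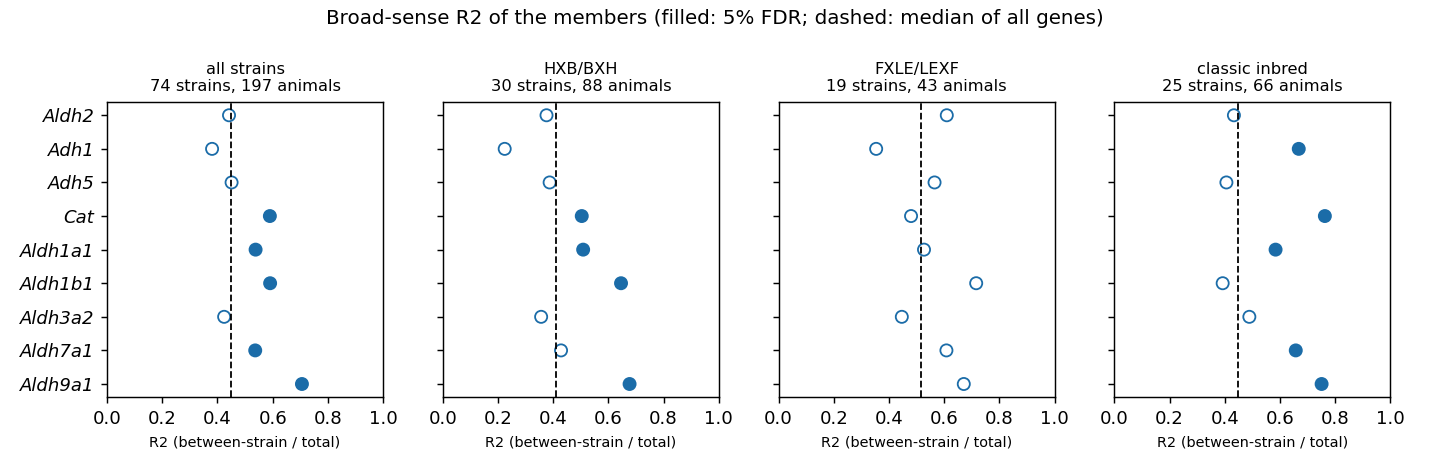
R2 of the strain term (x axis, 0 to 1) for each gene in the 4 fits, filled where the gene passed 5% FDR, with a dashed line at the median of all genes. Aldh9a1 has the highest R2 of the 9 over all strains and within HXB/BXH, and Cat among the classic strains, and no gene is filled within FXLE/LEXF.

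Within HXB/BXH 4 of the 9 genes were called, against 19.1% of all genes. Aldh9a1 had R2 0.68 (adjusted p = 6.6e-05), Aldh1b1 0.65 (adjusted p = 2.1e-04), Aldh1a1 0.51 (adjusted p = 0.035) and Cat 0.50 (adjusted p = 0.049), beside a median R2 of 0.41 for all genes. Without the libraries with raised liver transcripts Aldh1a1 (adjusted p = 0.14) and Cat (adjusted p = 0.11) no longer passed, and without the animals numbered 1, 2 or 3 there were 2, 1 and 0 calls. Within FXLE/LEXF 0 of 9 were called by limma, against 4.61% of all genes. An unadjusted p under 0.05 was found for 3 of 9, against 4616 of all 20859 genes. These 3 were Aldh1b1 (R2 0.72, adjusted p = 0.066), Aldh2 (R2 0.61, adjusted p = 0.16) and Aldh9a1 (R2 0.67, adjusted p = 0.19). In a simulation 200 of 20859 genes were changed, with a strain SD equal to the residual SD. The fit of this family recovered 19% of them, against 85% in HXB/BXH and 63.5% in the classic strains. The real fits called more genes than were changed there, which alters the cut of the adjustment. The power for the real genes was therefore not measured. Among the classic inbred strains 5 were called, against 19.3% of all genes. These were Cat (R2 0.76, adjusted p = 4.1e-05), Aldh9a1 (0.75, adjusted p = 1.0e-04), Adh1 (0.67, adjusted p = 0.0010), Aldh7a1 (0.66, adjusted p = 0.0049) and Aldh1a1 (0.58, adjusted p = 0.025). Without the animals numbered 1, 2 or 3 the classic strains gave 3, 1 and 4 calls. Whether R2 differed between the panels was not tested.

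Aldh9a1 separated the HXB/BXH progenitors. The 3 BN-Lx/Cub animals stood at 10.18, 10.56 and 10.45 and the 2 SHR/OlaIpcv animals at 10.66 and 10.74. Every SHR/OlaIpcv animal was above every BN-Lx/Cub animal, but the SHR/OlaIpcv values are averages of repeat libraries. Single libraries of SHR/OlaIpcv animal 1 ran from 10.48 to 10.85, so the lowest was under BN-Lx/Cub animal 2. How many of all genes separate these few animals was not counted. The mean was lower in BN-Lx/Cub by 0.31 (SE 0.088, 95% interval from -0.48 to -0.13, adjusted p = 0.023 by limma), and Aldh9a1 was the only member of the 9 called, against 4.51% of all genes. In the 3 batches that held libraries of both strains the difference was -0.33, -0.16 and -0.27, without a test. All 3 use repeat libraries of SHR/OlaIpcv animal 1, and the last 2 use BN-Lx/Cub animal 3, so they are not independent replicates. The difference kept its sign but no longer passed with batch as a covariate (-0.36, adjusted p = 0.18), with library-centred values (-0.27, adjusted p = 0.072), in the earlier table (-0.27, adjusted p = 0.20) and in the reconstructed gene table (-0.079, adjusted p = 0.93). With the replicate number as a block it did not pass either. Without the animals numbered 1 it was -0.24 (adjusted p = 0.73).

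Among the 30 recombinant strains HXB29/Ipcv was lowest in Aldh9a1, with animals at 10.35, 10.32 and 10.31, and HXB15/Ipcv highest, with animals at 10.75, 10.71 and 10.80. Of the 30 strain means 22 lay between the progenitors, 1 below both and 7 above both. A mixture fit placed 15 strains in a lower group, with means between 10.33 and 10.56, and 15 in an upper group between 10.61 and 10.75. Aldh9a1 was the only one of the 9 genes with more than 1 group in this family, while 11.7% of all genes had more than 1. The BIC gained 2.83 by the second group, so a rule that asked for 6 kept a single group. Without the animals numbered 2 none of the 9 genes had more than 1 group. The animals of the groups overlapped, with 10.48 ± 0.10 (SD, n = 44) and ranges of 10.28 to 10.67 in the lower, and 10.69 ± 0.088 (SD, n = 44) and 10.44 to 10.85 in the upper. For Cat the mean over strains was 11.00 ± 0.14 (SD, n = 15) in the lower group and 11.06 ± 0.099 (SD, n = 15) in the upper, and for Aldh2 10.50 ± 0.17 and 10.58 ± 0.19. Whether the other 8 genes differed between these groups was not tested.

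**Figure D3:**
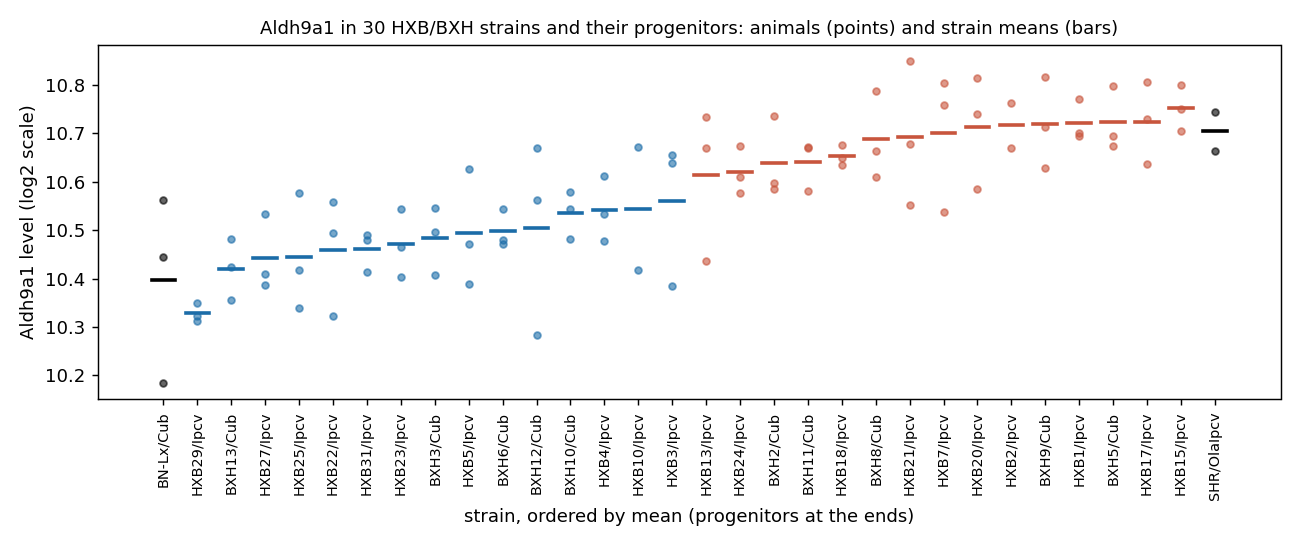
Aldh9a1 level on the log2 scale (y axis) in each animal (points) and strain mean (bars) of the 30 HXB/BXH strains in order of their mean (x axis), with BN-Lx/Cub at the left end and SHR/OlaIpcv at the right. Blue and red mark the lower and upper group of 15 strains each, whose animals overlap between 10.44 and 10.67.

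Outside this family Aldh9a1 was low in WAG/RijCrl, at 10.30, 10.21 and 10.52, and in the single BUF/MnaMcwi animal at 10.28. That 1 library was the lowest strain for 3 of the 9 genes and among the 3 lowest for 5, and how often it was lowest over all genes was not counted. Aldh9a1 was high in ACI/SegHsd, at 10.80, 10.88 and 10.70, and highest in LE/Stm at 10.92, the library with liver transcripts. In the ordered series of 74 strains the gaps between neighbours were small beside their standard errors, with 1 of 73 above it, so the order of neighbours cannot be read from these animals. Within 2 Mb of the gene, 3 of 22 other genes had a correlation of strain means over 0.5 in size in HXB/BXH, the strongest being Ildr2 with r = -0.63. The genes most alike over the 30 strains were Cd27 (r = 0.65), Plp2 (0.65) and Gfra3 (0.61). Here and below the most alike genes are those of highest positive r, with genes named LOC or RGD and a number left out. These correlations are across strain means of the same libraries. With the astrocyte list the r of Aldh9a1 was 0.57 within strains over 184 animals and 0.41 over the means of 63 strains.

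Aldh1b1 was spread widely in HXB/BXH although its progenitor means were close in the main fit. BN-Lx/Cub animals stood at 8.16, 8.64 and 8.21 and SHR/OlaIpcv animals at 8.25 and 8.26, so that the ranges overlapped. The difference of 0.082 (SE 0.12, 95% interval from -0.15 to 0.31) did not pass (adjusted p = 0.75). Over 12 alternatives it ran from -0.12 to 0.37 and was called in 1 (limma, adjusted p = 0.049). Of the 30 strains 13 lay below both progenitors and 14 above both. With progenitor means this close, few strains could lie between them. BXH6/Cub was lowest, with animals at 8.01, 8.18 and 7.99, of which animal 3 had raised liver transcripts, and HXB2/Ipcv (8.69 and 8.66) and HXB1/Ipcv (8.59, 8.61 and 8.57) were highest. These strains were picked from the ends of the order, so that their animals do not overlap follows from the choice. Repeat libraries of SHR/OlaIpcv animal 1 spanned 7.83 to 8.43 for Aldh1b1, with the lowest value in the library with raised liver transcripts. The gene most like it over the family was Fbxo10, an F-box gene 0.77 Mb away on the same chromosome (r = 0.78), followed by Rps4y2 (0.63) and Pgap4 (0.61). Aldh1b1 did not pass among the classic strains (R2 0.39, adjusted p = 0.53).

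Catalase was highest in the LE/Stm library with liver transcripts, at 11.40. It was next highest in LH/MavRrrc, with animals at 11.37, 11.27 and 11.31, and in FHH/EurMcwi, at 11.30, 11.31 and 11.33. It was low in SR/JrHsd, at 10.81, 10.79 and 10.89, and in the recombinant strains BXH13/Cub, at 10.75, 10.57 and 10.89, and BXH11/Cub, at 10.85, 10.84 and 10.79. The high and low strains did not overlap in any animal, as they were picked from the ends of the order. BN-Lx/Cub (10.99) and SHR/OlaIpcv (10.93) differed by 0.063 (SE 0.12, 95% interval from -0.17 to 0.29, adjusted p = 0.81), while 7 of 30 HXB/BXH strains were below both and 21 above both. The genes most like Cat in HXB/BXH were Nefm, a neurofilament gene (r = 0.81), Cpm (0.75) and Peg3 (0.73). Cat moved most with the astrocyte list of the cell type lists, with r = 0.54 within strains over 184 animals and 0.37 over the means of 63 strains, and with the dopamine neuron list r was 0.49 and 0.35. The part of cell composition in its strain differences was not tested.

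Aldh1a1 and Aldh7a1 completed the called genes. Aldh1a1 animals of FHH/EurMcwi stood at 11.04, 10.79 and 10.98 and those of HXB31/Ipcv at 10.89, 10.62 and 10.98. Those of SR/JrHsd were at 9.87, 10.31 and 10.42 and those of GK/FarMcwi at 10.20, 10.38 and 10.16. The single LEXF9/Stm animal was the highest strain, at 11.05. Aldh1a1 is known from midbrain dopamine neurons, and its level moved with markers of several cell types. Within strains, over 184 animals without raised liver libraries, r was 0.62 with the oligodendrocyte list, 0.51 with the endothelial list, 0.50 with the dopamine neuron and astrocyte lists and -0.47 with the neuron list. Over the means of 63 strains with 2 or more such animals r was 0.49 with the oligodendrocyte list, 0.36 with the endothelial list, 0.53 with the dopamine neuron list, 0.49 with the astrocyte list and -0.41 with the neuron list. In whole brain, fewer cells of a type and less RNA per cell cannot be told apart, and the part of cell composition in the strain differences was not tested. In HXB/BXH the genes most like it were Sec11c (r = 0.91), Fnta (0.89) and Ermn, an oligodendrocyte gene (0.89). Aldh7a1 was low in MWF/Hsd, with animals at 10.55, 10.54 and 10.48, and high in LH/MavRrrc, at 11.00, 10.92 and 11.09.

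Adh1 was called only among the classic strains of the 4 fits. It was low in BN-Lx/Cub, at 4.75, 4.80 and 4.71, in WAG/RijCrl, at 4.89, 4.68 and 4.72, in F344/NCrl, at 4.90 and 4.81, and in BN/NHsdMcwi, at 5.16, 4.96 and 4.61. It was high in SHR/OlaIpcv, at 5.46 and 5.97, and in SHRSP/A3NCrl, at 5.56 and 5.62. BN-Lx/Cub and SHR/OlaIpcv animals did not overlap, and how many of all genes separate them was not counted. Their difference of -0.96 (SE 0.34, 95% interval from -1.63 to -0.28) missed the threshold by limma (adjusted p = 0.087), and without the libraries with raised liver transcripts it was -0.93 and passed (adjusted p = 0.031). In the 3 shared batches, which hold the same SHR/OlaIpcv animal 1 and in 2 cases the same BN-Lx/Cub animal 3, it was -0.42, -0.69 and -0.52. Within HXB/BXH 29 of 30 strain means lay between the progenitors, and R2 was 0.22, at percentile 0.801 of all genes. That fit kept the raised HXB/BXH libraries, which add to the spread between animals of a strain, so this low R2 does not show that strains are alike. Over 10 alternatives, which include leaving out the raised libraries, R2 ran from 0.22 to 0.54 and Adh1 was called in 0.

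Adh1 moved with the liver list. Its gene level ranged between 4.32 and 6.35 with a median of 5.20 in the 201 other libraries. In the 13 raised ones it ranged between 5.17 and 6.59 with a median of 6.06. Its transcript NM_019286.4 had medians of 5.73 in the other libraries and 8.16 in the raised ones. The size of the rise therefore depends on whether gene or transcript is read, and the values below are of the gene. In each of the 12 raised libraries that had another animal of the strain, Adh1 was above the mean of those animals, by 0.090 to 1.85 with a median of 0.34. HXB10/Ipcv shows this at its widest, with 6.56 in animal 1 and 4.71 in animal 3. HXB17/Ipcv had 6.52 in animal 1 against 4.53 and 5.03. Cat was above its strain mates in 11 of those 12, with a median difference of 0.059, Aldh1a1 in 9 of 12, with 0.14, and Aldh2 in 6 of 12, with 0.011. The other 5 genes were above in 6 to 8 of 12. Among the 184 animals without raised libraries Adh1 still had a within-strain r of 0.61 with the liver list. Over the means of 63 strains r was 0.17. The classic-strain result for Adh1 kept its call without LE/Stm and F344/Stm (R2 0.58, adjusted p = 0.024) and without all raised libraries (R2 0.57, adjusted p = 0.036). The part of liver transcripts in the strain differences of Adh1 was otherwise not tested.

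**Figure D4:**
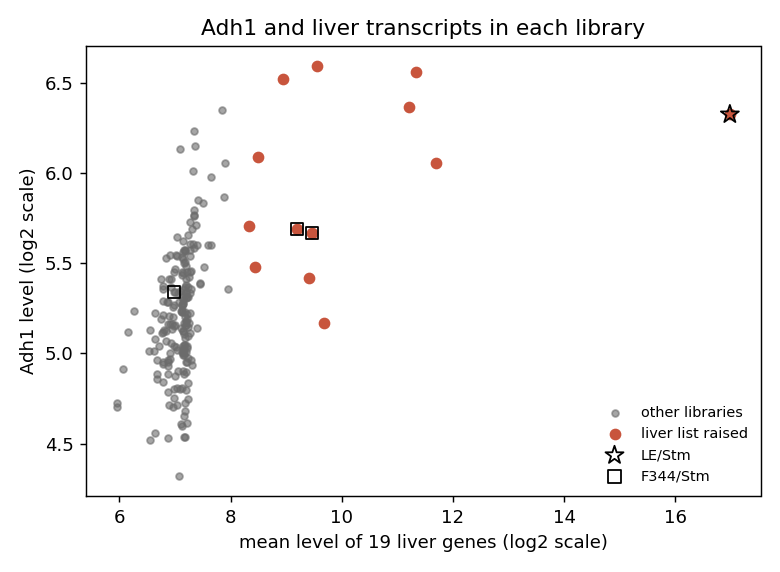
Adh1 level (y axis) against the mean of 19 liver genes (x axis), both on the log2 scale, for 214 libraries, with the 13 raised libraries in red, LE/Stm as a star and F344/Stm as squares. LE/Stm lies at 16.98 on the liver axis and 6.32 for Adh1, and the raised libraries reach up to 6.59.

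LE/Stm, with 1 animal, was the highest of 74 strains for 6 of the 9 genes, and 8 of 9 genes were lower in F344/Stm than in LE/Stm, Aldh1a1 being the exception (10.70 against 10.42). The median difference of all genes was -0.020. The same counts over all genes were not made, so these are not read as particular to the 9 genes. None of the 9 was called by limma, against 0.796% of all genes. Aldh9a1 had the lowest adjusted p, at a difference of -0.31 (SE 0.11, adjusted p = 0.31). Aldh2 stood at 10.56, 10.41 and 10.54 in F344/Stm and 11.13 in LE/Stm, Adh1 at 5.34, 5.67 and 5.69 and 6.32. The 19 FXLE/LEXF strains lay below both progenitors for Adh1 in 19 of 19 cases and for Cat in 16 of 19. The progenitor means behind those counts include the raised libraries of LE/Stm and F344/Stm. F344/Stm animal 1, which was not raised by the threshold above, stood at 11.04 for Cat and 5.34 for Adh1. Of the 19 strain means 9 lay below it for Cat and 16 for Adh1, a count made after the values were seen. For LE/Stm, with its 1 animal, progenitor level and liver transcripts cannot be told apart. In an earlier processing of the same study LE/Stm animals 3 and 1 had Adh1 at 11.42 and 6.81, and Cat at 13.10 and 11.54, beside liver list means of 12.65 and 8.41. F344/Stm animals 2 and 3 had Adh1 at 8.22 and 8.29 and Cat at 12.12 and 11.98, with liver list means of 10.80 and 10.73, and animal 1 had Adh1 at 6.39 and Cat at 11.42, with 7.36. The median liver list mean over libraries of that processing was 5.92, so F344/Stm animal 1 exceeded it by more than 1 there. Whether that animal is free of liver transcripts was not tested. In the libraries of the other strains Adh1 lay between 5.28 and 7.53 and Cat between 10.72 and 11.48. The Adh1 feature of that processing carries the name of a neighbouring dehydrogenase gene, Adh6, in the later annotation, so its naming is uncertain.

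Groups of strain means in FXLE/LEXF were found for Aldh2, Adh5 and Aldh1a1, while 14.7% of all genes had more than 1 group. Adh5 had 11 strains between 10.34 and 10.45 and 8 between 10.52 and 10.62, a BIC gain of 5.73. Its animals overlapped, at 10.41 ± 0.10 (SD, n = 27) and 10.58 ± 0.056 (SD, n = 16). Aldh1a1 had 15 strains between 10.26 and 10.61 and 4 between 10.77 and 11.05, a BIC gain of 1.48, and the animals of these groups overlapped, at 9.91 to 10.83 and 10.54 to 11.05. For Aldh2 the fit set 2 strains near 10.09 and 3 near 10.90 apart from 14, a BIC gain of 1.01, and its animals overlapped too, at 9.73 to 10.35, 10.11 to 10.96 and 10.80 to 11.08. LEXF10A/Stm, one of the low strains, had animals at 10.35, 10.16 and 9.73, and FXLE15/Stm, one of the high ones, at 11.08 and 10.87. None of these genes passed the F-test in this family.

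Repeat libraries of 1 animal gave a spread that does not come from animals. Each repeat of an animal was sequenced in a different batch, so this spread includes differences between batches. Animals of 1 strain often shared a batch, and a strain mean averages its animals. The SDs below are therefore not measured on a like footing. SHR/OlaIpcv animal 1 had 12 libraries, and 3 animals in all had repeats (17 degrees of freedom). Aldh2 varied more between repeat libraries (SD 0.36) than between animals of a strain (0.26) or between strain means (0.21). Its levels in that animal ran from 9.67, in the library with raised liver transcripts, to 10.96, and without that library the SD of the animal was 0.31 in place of 0.36. Aldh9a1 varied less, with SDs of 0.089, 0.094 and 0.12 in the same order. Aldh1b1 had 0.16, 0.13 and 0.13, and Aldh7a1 0.15, 0.12 and 0.11. Cat had 0.12, 0.13 and 0.12, and Aldh1a1 0.15, 0.20 and 0.17. Adh1 had 0.31, 0.38 and 0.27, Adh5 0.11, 0.098 and 0.077, and Aldh3a2 0.063, 0.080 and 0.059. For Adh5 and Aldh1b1 the repeat SD turned on that library, without which the SD of the animal's libraries fell from 0.12 to 0.060 for Adh5 and from 0.17 to 0.11 for Aldh1b1. With library-centred values the 3 SDs were 0.089, 0.10 and 0.076 for Adh5 and 0.12, 0.12 and 0.13 for Aldh1b1. Within strains Aldh2 had r over 0.7 in size with 1396 genes, such as Serpinh1 (0.88) and Ogt (-0.87), against 162 for Aldh1a1, 32 for Aldh3a2, and 0 to 3 for the other 6. These points share their libraries.

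**Figure D5:**
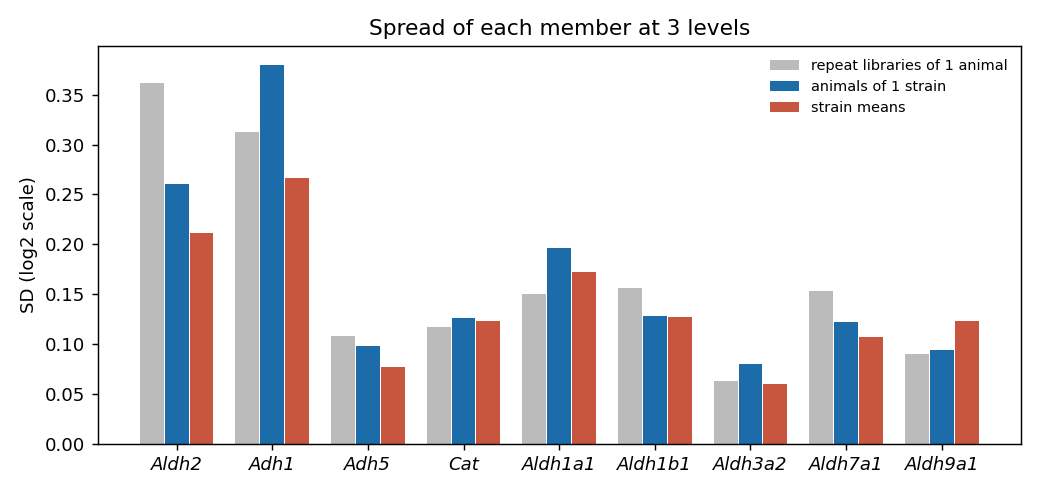
SD on the log2 scale (y axis, from 0) of each gene over repeat libraries of 1 animal, each from a different batch, over animals of 1 strain and over strain means. The repeat bar for Aldh2 (0.36) stands above its other bars and the strain bar for Aldh9a1 (0.12) above its others, while the repeat bars of Adh5 and Aldh1b1 include the SHR/OlaIpcv library with raised liver transcripts, on which they turn.

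At the level of transcripts 7 of 13 member transcripts were called over all strains (limma), against 13.9% of all transcripts. They belong to Aldh9a1 (R2 0.70), Cat (0.59), Aldh1b1 (0.57), Adh1 (0.53) and, with 3 of its 4 transcripts, Aldh1a1 (0.52 to 0.54). Both Aldh3a2 transcripts and those of Aldh2, Adh5 and Aldh7a1 did not pass. Leaving out each animal number in turn gave 1 to 5 called transcripts. The Adh1 transcript NM_019286.4 stood at 14.60 in LE/Stm, while the gene stood at 6.32 there. In the 201 libraries without raised liver transcripts it ranged from 4.36 to 9.10. Without the animals with raised libraries its R2 was 0.42 and it no longer passed (adjusted p = 0.56).

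The wider pathway was read from lists. Of 14 other aldehyde dehydrogenase genes 8 were called over all strains, 5 within HXB/BXH, 3 within FXLE/LEXF and 7 among the classic strains, with a median R2 of 0.54. Of all genes 37.3%, 19.1%, 4.61% and 19.3% were called in these 4 fits, in that order, and the counts of every list below stand against those shares. Aldh1a7, a close relative of Aldh1a1 with which it may share reads, had R2 0.77, with strain means from 3.39 in HXB18/Ipcv to 4.73 in FHH/EurMcwi. Aldh1a2, a retinoic acid-forming enzyme of the meninges, had R2 0.70 and was lower in BN-Lx/Cub (9.31) than in SHR/OlaIpcv (9.83), by -0.53 on the log2 scale (limma, adjusted p = 0.010). Aldh1a3 had R2 0.65. Of the 7 other genes of alcohol oxidation that were present, 2 were called over all strains, Adhfe1 (R2 0.71) and Cyp2e1 (R2 0.50). Cyp2e1, a liver cytochrome that oxidises ethanol, stood at 13.80 in LE/Stm against a median strain of 6.00, and its difference of -6.53 between F344/Stm and LE/Stm was called (adjusted p = 3.1e-04). LE/Stm is 1 animal, the one with liver transcripts, so that test takes its spread from the other strains. Adh4, Adh6, Adh6a and Adh7 were not used here. Akr1b1, an aldose reductase, did not pass (R2 0.44, adjusted p = 0.17).

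Of 17 genes of hydrogen peroxide handling 7 were called over all strains, 2 within HXB/BXH, 2 within FXLE/LEXF and 5 among the classic strains, beside 37.3%, 19.1%, 4.61% and 19.3% of all genes. Aox1, an aldehyde oxidase that makes peroxide, had R2 0.92 over all strains, 0.93 in HXB/BXH (adjusted p = 3.9e-22) and 0.92 in FXLE/LEXF (adjusted p = 8.5e-08). Its strain means ran from 7.66 in BN/NHsdMcwi to 9.28 in LE/Stm, the library with liver transcripts, and it was lower by 0.69 in BN-Lx/Cub than in SHR/OlaIpcv (8.05 against 8.74, adjusted p = 4.3e-05). Xdh had R2 0.66 and Gpx3 0.61. Of 6 genes of acetate use 3 were called over all strains, 1 among the classic strains and 0 within either family, beside the same shares of all genes. Those called over all strains were Acss1 (R2 0.57), Acss2 (0.56) and Acat2 (0.49). Of 11 genes of retinoid metabolism 6 were called over all strains, 3 among the classic strains and 0 within either family, where 37.3% and 19.3% of all genes were called over all and classic strains and 19.1% and 4.61% in the families. Crabp2 stood at R2 0.52, Cyp26b1 at 0.50 and Rarb at 0.49.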

How the data were processed

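Whole-brain RNA of male rats was prepared with a ribosomal RNA depletion and stranded library kit, per the labels. The submitters' processing notes name cutadapt 1.9.1, Bowtie2 (2.3.4.3 and 2.4.5), HISAT2 (2.1.0 and 2.2.1), StringTie (1.3.5 and 2.2.1), RSEM (1.3.1 and 1.3.3) and DESeq2. The notes of some samples name rn6. The build of the main table is not given in the sources used here. The authors deposited gene and transcript levels on a log2 scale. By the study's methods estimated counts were cleared of 1 factor of unwanted variation and passed through a regularized log, which shrinks low genes, so read depth per library is unknown and differences of low genes may be understated. Levels are not per length, so no gene was compared with another in level.

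From these values the 73 spike-in rows were left out and libraries of the same strain and animal number were averaged. No other filter was used. Strain effects were tested with limma 3.58.1 (moderated F, R 4.3.3), in all animals and in each panel, and progenitor pairs by contrasts in the fit over all strains, with Benjamini-Hochberg adjustment over all genes at 5% FDR. A strain with 1 animal was assumed to vary like the others. R2 is between-strain over total sum of squares. Strain means were divided by mclust 6.1.1 into 1 to 3 groups of equal variance. The labels number the animals of a strain but do not say whether they came from separate litters, so p-values measure only the spread between these animals. The tests were tried on simulated data before use. Named genes outside the 9 are the 3 of each list with the highest R2 over all strains, the 1 largest called progenitor difference per list, and the 3 most correlated genes for members called in HXB/BXH. Most correlated means highest positive r, with genes named LOC or RGD and a number left out. Ildr2, Serpinh1 and Ogt were chosen after their values were seen. Gene distances come from the deposited annotation. Alternatives were batch, replicate number, left-out animals, a low-level filter, library centring, another variance prior, 2 other deposited tables and left-out libraries. The liver and Y-linked thresholds and both transcript-level exclusions were chosen after seeing the data. The members, lists and alternatives were chosen with earlier results of these data known. Promoters matched 8 of 9 members, with Adh1 listed as Adh1c.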

Additional observations from a re-analysis of the deposited data

How the results depend on the processing

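Over all strains 5 members were called, and the count moved by more than 1.5 times in the earlier Ensembl-based table (8) and in the reconstructed gene table (3, of 8 members found there). Within HXB/BXH 4 were called, but 2 in the earlier table, 0 in the reconstructed table and 2 without the libraries with raised liver transcripts. Among classic strains 5 became 1 in the reconstructed table. For BN-Lx/Cub against SHR/OlaIpcv 1 became 0 with batch as a covariate, with library-centred values and in the reconstructed table, and 2 without the raised liver libraries. For F344/Stm against LE/Stm 0 became 1 in the earlier table (Adh1). The group count of 1 in HXB/BXH became 0 when the BIC had to gain more than 6 and 2 in the reconstructed table, and the 3 in FXLE/LEXF became 0 under that rule. Leaving out each animal number in turn gave 2 to 4 members over all strains, 0 to 2 in HXB/BXH, 0 to 1 in FXLE/LEXF, 1 to 4 in classic strains, 0 to 1 for BN-Lx/Cub against SHR/OlaIpcv, 0 to 2 and 1 to 3 genes with groups in HXB/BXH and FXLE/LEXF, and 1 to 5 transcripts. Each of these fits has fewer animals. Without animal 2 LE/Stm has none, so that contrast gave no value. With the replicate number as a block the BN-Lx/Cub count was 0 (Aldh9a1, -0.30, adjusted p = 0.10, limma) and the other counts were 5, 4, 0, 5, 0 and 7. The mean correlation of deviations between animals of the same number was 0.0023, 0.0073 and 0.032 for numbers 1, 2 and 3. It was -0.0064 for animals of different numbers and -0.017 for animals of the same batch. As it was not raised even for a shared batch, this mean cannot decide whether the numbers pair animals. The numbers were not taken as pairing. Aldh9a1 was called over all strains in 14 of 14 alternatives (adjusted p up to 0.0080). An F-test has no direction. The 1 called progenitor difference, Aldh9a1 lower in BN-Lx/Cub, kept its sign in all 12 alternatives, from -0.39 to -0.079. Where counts moved, the cause was not tested. Depth per library is unknown, so no limit from depth could be set.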
